A study of Mus musculus with 6 samples.

Results

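Cells sense oxygen through the hypoxia-inducible factors (HIF). Prolyl hydroxylases of the EGLN family use oxygen to mark the HIF alpha subunit, the von Hippel-Lindau protein (VHL) binds the marked subunit and sends it to the proteasome, and the subunit that escapes pairs with ARNT and switches on genes with an RCGTG motif. In T cells the alpha subunit HIF-1α also rises on activation through the T cell receptor (TCR) at normal oxygen, and it is known for its part in glycolysis and in the balance of effector and regulatory cells. The control of HIF-1α is mostly on the protein, which was not measured here.

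The 10 genes described were taken by name from the gene and transcript tables. They were 5 genes of the sensing step (Hif1a, Vhl, Egln1, Egln2 and Egln3) and 5 genes known as HIF targets (Bnip3, Bnip3l, Ddit4, Vegfa and Ankrd37), among 52550 genes listed, of which 22526 had at least 1 count. All 10 were matched and tested. Their 47 annotated transcripts were all listed, and 42 of them had at least 1 count, among 131146 transcripts listed.

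RNA was sequenced from wild type (WT) primary splenic CD3+ T cells of mice, activated for 24 h with antibodies to CD3 and CD28. The 3 control samples had the antibodies and nothing else (TCR alone), and for the other 3 samples 100 ng/ml DMGV (dimethylguanidino valeric acid, a product of methylated arginines) was added to the same activation (TCR+DMGV). The labels name this compound, while the legend of the study's RNA sequencing experiment calls the agent at this dose LNY1, a purified fraction of conditioned medium that holds the methylated arginines ADMA and SDMA, so which agent was added is not certain. The samples are given as independent biological samples, and the labels give only the WT genotype. The study's mice as a whole were of several strains, of both sexes and young adults a few weeks of age, and no strain, age or sex is tied to these samples in the sources used here. The comparison asks how the compound changed gene expression before the cells divided.

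The counts summed to between 37758725 and 43718867 per sample. On the first principal component of log2 CPM (counts scaled to a common library size by the TMM method), which held 32.2% of the variance, TCR alone replicate 3 and TCR+DMGV replicate 1 had scores of 42.1 and 42.9, and the other 4 samples lay between -34.9 and -10.5. These samples stood apart from the rest, 1 in each group, and values without them are given beside the results that rest on them. All 12 T cell markers were tested, and their summed CPM was 3509 to 4020 in TCR alone and 3858 to 4236 in TCR+DMGV. The log2 fold changes of all 12 were above 0, with 0 past the threshold and 0 at an unadjusted p under 0.05 by edgeR, and their part in the values of the HIF genes was not tested. All 9 neutrophil markers were at 0 in every sample. So were 3 myeloid markers (Cd14, Cd163 and Vsig4) and 3 dendritic cell markers (Clec9a, Siglech and Cd209a). Others of these lists were counted in every sample. Csf1r of the myeloid markers had 6.91 to 8.67 CPM and Cd68 1.51 to 2.56. Zbtb46 of the dendritic cell markers had 3.1 to 4.61 CPM and Itgax 2.52 to 4.63. The 8 B cell markers, most of it Cd79b, summed to 8.48 to 11.7 CPM in TCR alone and 9.48 to 10.2 in TCR+DMGV. The 10 myeloid markers, most of it Csf1r, summed to 9.07 to 12.8 and 9.09 to 11.2 CPM. The 7 dendritic cell markers summed to 7.23 to 9.74 and 7.87 to 9.8 CPM, the 6 NK cell markers, most of it Eomes, to 71.5 to 78.1 and 74.9 to 82.9, and the 9 endothelial and stromal markers, most of it Pecam1, to 32.5 to 37.4 and 35.8 to 37.3.

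The start of the Hif1a coding sequence is shown because the transcripts that carried most of its counts differ there. Hif1a-201, on the annotation GENCODE M21 of GRCm38, starts on chromosome 12 at 73907904 and codes for 836 residues. Hif1a-202 starts at an upstream first exon at 73901375 and codes for 810 residues. Alternative first exons of mouse Hif1a are known, and transcripts of the upstream exon are known from activated T cells. The capitals mark the 36 bases, 12 residues, that precede the point where the coding sequence of Hif1a-202 begins.

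Hif1a-201: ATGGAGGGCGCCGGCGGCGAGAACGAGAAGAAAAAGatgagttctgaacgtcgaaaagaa

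Hif1a-202: atgagttctgaacgtcgaaaagaa

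From this start the sequences ran together, except that Hif1a-202 skipped 42 bases, 14 residues, after base 1533 of the Hif1a-201 coding sequence.

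The core of the HIF binding motif is ACGTG or GCGTG. It was searched on both strands in the 250 bases before the annotated start of each gene (RefSeq, GRCm38.p6), where overlapping matches of both strands, as in CACGTG, were counted apart. Of the 9 members with a promoter in the table (Bnip3l had none), 7 held at least 1 match before the first start, and 38.6% of all 32851 promoters did so (16.6% ACGTG and 28.2% GCGTG). The promoters were not compared at like base composition. Bnip3 held 5 matches, Ankrd37 and Egln2 4 each, Hif1a 3, Egln1 and Ddit4 2 each and Egln3 1, while Vhl and the first start of Vegfa held 0. For Hif1a the bases searched (chr12:73907617-73907866) lie before the start of Hif1a-201, and the upstream start of Hif1a-202 was not searched. A second start of Vegfa, whose searched bases lie inside the gene (chr17:46025164-46025413), held 2. A second start of Egln2, whose bases also lie inside its gene (chr7:27165729-27165978), held 1. Windows of 3 targets are printed. Bnip3 and Ankrd37 had the lowest ratios of the group means among the members, and Ddit4 is set beside them as a target with matches whose means differed less. The windows were thus picked by these ratios, and a link between matches and change was not tested. Egln2, with 4 matches, had a log2 fold change of 0.07. Capitals mark the matches on either strand, and the stretches run 5′ to 3′ on the strand of the gene. They stand at chr7:138909530-138909629 for Bnip3, chr8:45999995-46000094 for Ankrd37 (3 of its 4 matches) and chr10:59951869-59951968 for Ddit4, all on the minus strand.

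Bnip3: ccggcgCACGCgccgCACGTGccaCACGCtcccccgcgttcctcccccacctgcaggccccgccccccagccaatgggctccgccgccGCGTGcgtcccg

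Ankrd37: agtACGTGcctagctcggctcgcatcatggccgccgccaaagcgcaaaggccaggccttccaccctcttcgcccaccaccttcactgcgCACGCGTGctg

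Ddit4: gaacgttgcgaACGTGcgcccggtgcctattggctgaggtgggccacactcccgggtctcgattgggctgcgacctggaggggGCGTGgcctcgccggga

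Per gene length, Hif1a was the most abundant of the 10 genes. The levels are given as FPKM (fragments scaled to gene length and library size), the deposited unit that can be compared between genes. Hif1a had a mean of 77.7 FPKM over the 6 samples, with a range of 54.0 to 100.0. The prolyl hydroxylases followed, with Egln1 at 27.2 FPKM (24.4 to 31.3), Egln3 at 17.7 (16.4 to 19.0) and Egln2 at 14.7 (13.8 to 16.1). Of the targets, Bnip3l had 13.9 FPKM (11.2 to 16.8), Bnip3 9.64 (7.10 to 14.0) and Ddit4 9.45 (7.84 to 10.5). Vhl had 7.11 FPKM (6.64 to 7.39), Vegfa 2.22 (1.81 to 3.03) and Ankrd37 1.79 (1.22 to 2.86). In this order, the ranges of neighbouring genes overlapped between Egln2 and Bnip3l, Bnip3l and Bnip3, Bnip3 and Ddit4, and Vegfa and Ankrd37, and did not overlap at the other 5 steps. The FPKM deposited for transcripts differed from these gene values. In TCR alone replicate 1, Egln2 had 13.9 FPKM and its transcript Egln2-201 alone 18.4, where Egln3 had 17.5. Vhl-201 ran from 7.11 to 7.93 FPKM, into the range of Ddit4. The order of Egln3 and Egln2 and the gap between Ddit4 and Vhl thus hold for the gene FPKM only. Hif1a and the 3 hydroxylase genes had the 4 highest means.

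**Figure D1:**
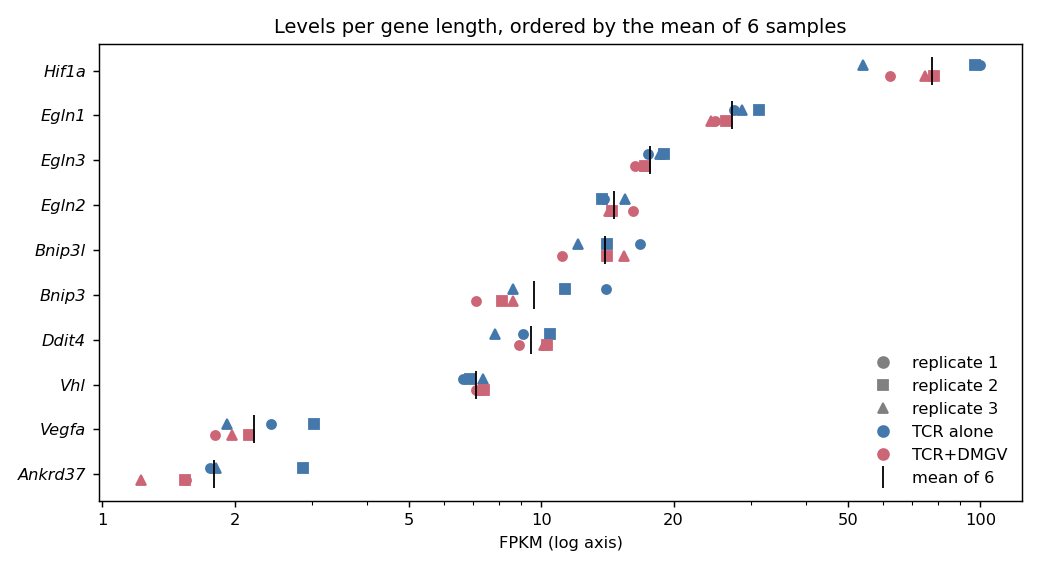
FPKM of each of the 10 genes (x axis, log scale) in the 6 samples, ordered by their mean, with the marker shape giving the replicate, the colour the group and the bar the mean of 6 samples. Hif1a lies at 54.0 to 100.0 FPKM, Egln1 at 24.4 to 31.3, and Vegfa and Ankrd37 between 1.22 and 3.03.

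Between the groups, none of the 10 genes passed the threshold, which was an adjusted p under 0.05 by edgeR over 14786 genes. Each member had an adjusted p of 1.00 after rounding. At an unadjusted p under 0.05 there was 1 member, Bnip3 (3.19% of all genes tested), and DESeq2 likewise called 0 members with 1 at an unadjusted p under 0.05 (500 of all 22526 genes in that fit). Of all 14786 genes, 2 (0.0135%) passed the threshold. The log2 fold change of TCR+DMGV over TCR alone was below 0 for 7 members and above 0 for 3, with a median of -0.15 where the median of all genes tested was 0.0024. It was -0.10 over the sensing genes and -0.29 over the targets. No overlap in CPM between the groups was seen for 2 of the 10 members, Egln1 and Ankrd37, against 8.86% of all genes. With 3 samples against 3, the smallest p of an exact permutation test is 0.1, so it cannot pass 0.05 for a single gene. In RNA of whole samples, fewer cells that express a gene and less RNA per cell cannot be told apart.

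Hif1a (ENSMUSG00000021109.13, chromosome 12 from 73901375 to 73947530, plus strand) encodes the regulated alpha subunit. It had 657, 655 and 349 CPM in TCR alone and 404, 526 and 508 CPM in TCR+DMGV replicates 1, 2 and 3. The lowest value of all belonged to TCR alone replicate 3 and the next to TCR+DMGV replicate 1, the samples that stood apart, so the TCR+DMGV values lay inside the range of TCR alone. The means were 554 ± 177 and 479 ± 66.0 CPM (SD, n = 3 each), with a log2 fold change of -0.21 (standard error 0.24, 95% interval -0.78 to 0.36, adjusted p = 1.00 by edgeR's quasi-likelihood test). Without these samples, which leaves 2 against 2, it was -0.34 (unadjusted p = 0.0030, adjusted p = 0.61 by edgeR), and without TCR alone replicate 3 alone it was -0.45 (unadjusted p = 0.0076, adjusted p = 0.65). In these fits 972 of 14888 and 1109 of 15191 genes had an unadjusted p under 0.05, against 471 of 14786 with all 6 samples. The log2 fold change of Hif1a was -0.08 without TCR alone replicate 1, -0.07 without TCR alone replicate 2 and -0.10 without TCR+DMGV replicate 1 (unadjusted p = 0.76, 0.80 and 0.72 by edgeR). The antisense gene Gm15283, with 213 to 277 counts, shares 330 bases with the exons of Hif1a, and the counting is not stated to use strand.

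The genes whose log2 CPM followed Hif1a most closely over the 6 samples, among 9042 genes with a mean log2 CPM above 3, were Selenot, Sgk3 and Gpcpd1. Selenot, a selenoprotein gene of the endoplasmic reticulum, had 163, 157 and 90.7 CPM in TCR alone and 104, 136 and 128 in TCR+DMGV, with a Pearson r of 0.997 (n = 6). The r was 0.996 for Sgk3, which encodes a serine/threonine kinase, and 0.996 for Gpcpd1, a glycerophosphocholine phosphodiesterase gene. In all 3 genes the lowest values belonged to TCR alone replicate 3 and TCR+DMGV replicate 1. The 6 points share these low samples, and r is a description with no test.

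Egln1, Egln2 and Egln3 encode the HIF prolyl hydroxylases, of which EGLN1 (PHD2) is the main one at normal oxygen. Egln1 (ENSMUSG00000031987.6, chromosome 8 from 124908587 to 124949324, minus strand) had 110, 129 and 113 CPM in TCR alone and 98.3, 108 and 101 in TCR+DMGV. All 3 TCR+DMGV samples lay below the lowest TCR alone sample, by a small margin at the nearest pair. The means were 117 ± 10.2 and 102 ± 5.06 CPM (SD, n = 3 each) and the log2 fold change -0.20 (standard error 0.09, 95% interval -0.41 to 0.01, unadjusted p = 0.063 and adjusted p = 1.00 by edgeR). With scaling by library size alone and with log2(FPKM + 1) its unadjusted p was 0.044 and 0.033, with an adjusted p of 1.00 in both. With samples left out in turn it ran from -0.26 without TCR alone replicate 1 (unadjusted p = 0.033 by edgeR) to -0.13 without TCR alone replicate 2 (unadjusted p = 0.19), and it was -0.17 without TCR+DMGV replicate 1 (unadjusted p = 0.17).

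Egln2 (ENSMUSG00000058709.11, chromosome 7 from 27158658 to 27166802, minus strand) had 43.3, 44.2 and 47.6 CPM in TCR alone and 49.8, 46.4 and 45.9 CPM in TCR+DMGV. Its groups overlapped, and its log2 fold change was 0.07 (95% interval -0.13 to 0.28). For Egln3 (ENSMUSG00000035105.5, chromosome 12 from 54178981 to 54203860, minus strand), itself a known HIF target, the values were 52.0, 58.0 and 54.4 CPM in TCR alone and 48.0, 52.3 and 52.8 in TCR+DMGV. Its log2 fold change was -0.10 (95% interval -0.31 to 0.11), and only TCR+DMGV replicate 1 lay below TCR alone.

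Vhl (ENSMUSG00000033933.13, chromosome 6 from 113623959 to 113631633, plus strand) encodes the part of the ubiquitin ligase that binds hydroxylated HIF alpha. It had 22.2, 23.7 and 24.3 CPM in TCR alone and 23.5, 25.3 and 25.0 in TCR+DMGV, a ratio of 1.14 between its highest and lowest sample, the smallest of the 10 genes. Its log2 fold change was 0.07 (95% interval -0.14 to 0.29). For Vhl, Egln2 and Egln3 the interval stayed within 0.31 of 0 on either side, and for Egln1 within 0.41.

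Bnip3 and Bnip3l encode related proteins of the outer mitochondrial membrane that act as receptors for mitophagy. Bnip3 (ENSMUSG00000078566.8, chromosome 7 from 138890836 to 138909519, minus strand) had 35.4, 29.4 and 21.5 CPM in TCR alone and 17.8, 21 and 22.6 in TCR+DMGV. TCR alone replicate 3 lay within the TCR+DMGV range, and the other TCR alone samples lay above it. The means were 28.8 ± 6.98 and 20.4 ± 2.46 CPM (SD, n = 3 each), a ratio of 0.71, with a log2 fold change of -0.49 (standard error 0.19, 95% interval -0.94 to -0.04, unadjusted p = 0.036 and adjusted p = 1.00 by edgeR). Its unadjusted p stood at rank 311 of 14786. Without TCR alone replicate 3 the log2 fold change was -0.66 (unadjusted p = 0.0029, adjusted p = 0.65), without TCR alone replicate 1 it was -0.33 (unadjusted p = 0.10), and without the samples that stood apart it was -0.57 (unadjusted p = 0.0055, adjusted p = 0.67). The antisense gene Gm45507 shares 504 of the 2265 exonic bases of Bnip3 and had 93 to 185 counts, where Bnip3 had 790 to 1345.

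Bnip3l (ENSMUSG00000022051.15, chromosome 14 from 66985239 to 67008877, minus strand) had 72.1, 62.3 and 51.4 CPM in TCR alone and 47.5, 62.2 and 68.6 in TCR+DMGV. The lowest value in each group was that of the sample that stood apart, and the groups spanned nearly the same range. The log2 fold change was -0.06 (95% interval -0.47 to 0.35), and its sign turned when TCR alone replicate 1 (0.05) or TCR+DMGV replicate 1 (0.08) was left out. Bnip3l is also known from red cell maturation. The summed CPM of 9 erythroid markers was 4.01 to 5.37 in TCR alone and 2.36 to 3.88 in TCR+DMGV, with Slc4a1 and Epb42 at 0 in every sample. Of this list 5 genes were tested, 0 passed the threshold and 1 had an unadjusted p under 0.05 by edgeR. The part of this difference in the level of Bnip3l was not tested.

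Ddit4 (ENSMUSG00000020108.4, chromosome 10 from 59949669 to 59951834, minus strand) encodes REDD1, a stress-induced inhibitor of mTORC1. Its values were 17.8, 21 and 15.1 CPM in TCR alone and 17.2, 20.6 and 20.4 in TCR+DMGV, all of the latter inside the range of the former. The log2 fold change was 0.11 (95% interval -0.24 to 0.47), and with samples left out in turn it ran from 0.01 (TCR alone replicate 3 left out) to 0.24 (TCR alone replicate 2 left out).

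Vegfa (ENSMUSG00000023951.17, chromosome 17 from 46016993 to 46032369, minus strand) encodes the main growth factor for blood vessels. It had 11.7, 15.0 and 9.13 CPM in TCR alone and 8.67, 10.7 and 9.87 in TCR+DMGV. Only TCR+DMGV replicate 1 lay below TCR alone, and 2 of the TCR alone samples lay above every TCR+DMGV sample. The log2 fold change was -0.29 (standard error 0.20, 95% interval -0.76 to 0.17, unadjusted p = 0.18 by edgeR), and it ran from -0.45 without TCR alone replicate 3 (unadjusted p = 0.033, adjusted p = 0.65) to -0.10 without TCR alone replicate 2 (unadjusted p = 0.59). In the fit without TCR alone replicate 3, 1109 of 15191 genes had an unadjusted p under 0.05 by edgeR.

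Ankrd37 (ENSMUSG00000050914.16, chromosome 8 from 45996902 to 46005707, minus strand) encodes a small ankyrin repeat protein and was the least abundant member, with 88 to 208 counts. It had 3.05, 5.10 and 3.14 CPM in TCR alone and 2.67, 2.79 and 2.22 in TCR+DMGV. All TCR+DMGV samples lay below all TCR alone samples, and TCR alone replicate 2 lay far above its group. The means were 3.76 ± 1.16 and 2.56 ± 0.30 CPM (SD, n = 3 each), a ratio of 0.68, with a log2 fold change of -0.56 (standard error 0.26, 95% interval -1.16 to 0.05, unadjusted p = 0.067 and adjusted p = 1.00 by edgeR). Without TCR alone replicate 2 it was -0.28 (unadjusted p = 0.25), the value nearest to 0 with a sample left out, and without TCR alone replicate 1 it was -0.70, the farthest. The exons of Ankrd37 share 57 bases with Ufsp2 on the other strand, which had 1069 to 1333 counts, and 349 bases with Lrp2bp, which had 4 to 15. Without the samples that stood apart, the log2 fold changes of Egln1, Vegfa and Ankrd37 were -0.19, -0.37 and -0.70, with adjusted p of 0.78, 0.77 and 0.76 by edgeR.

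**Figure D2:**
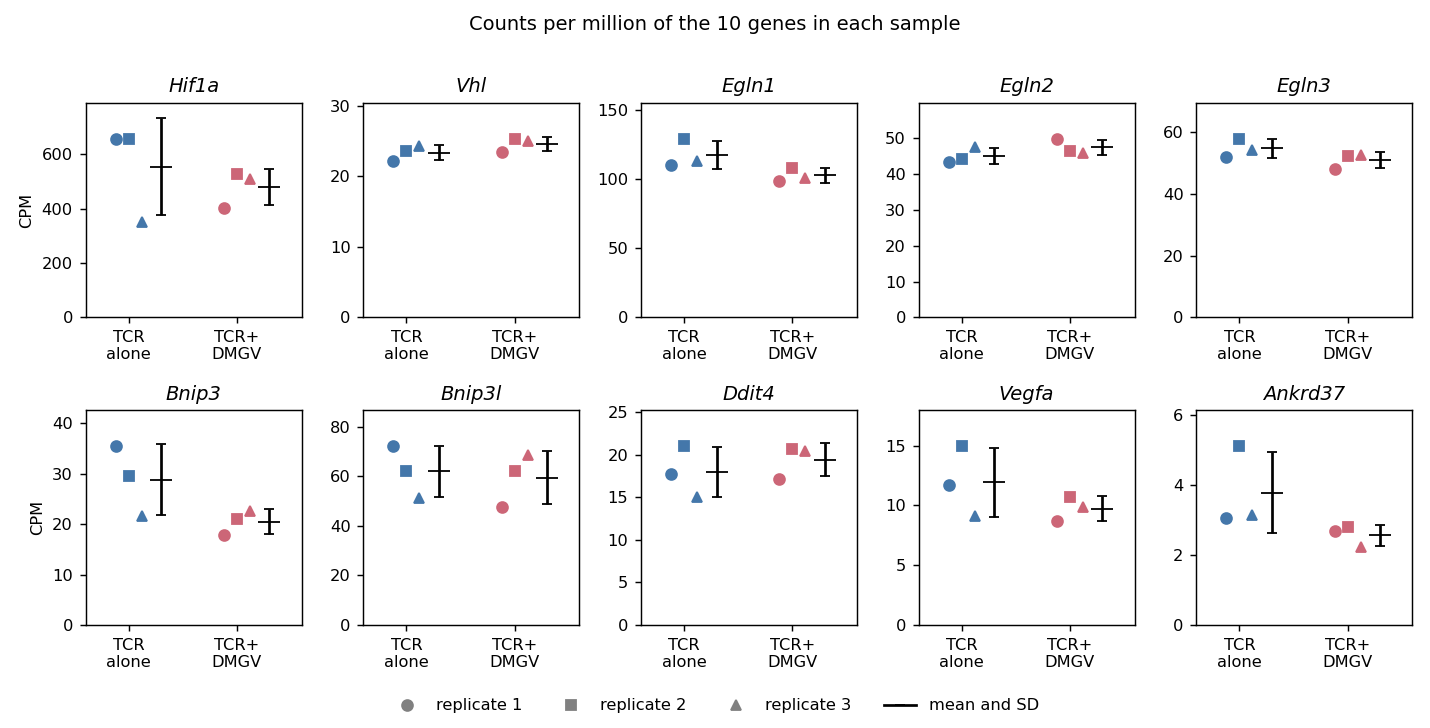
CPM of each gene (y axis, from 0) in the 3 TCR alone and 3 TCR+DMGV samples, with marker shapes for the replicates and the mean and SD beside each group. The groups overlap in 8 of the 10 panels, and in the panels of Egln1 and Ankrd37 they do not.

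**Figure D3:**
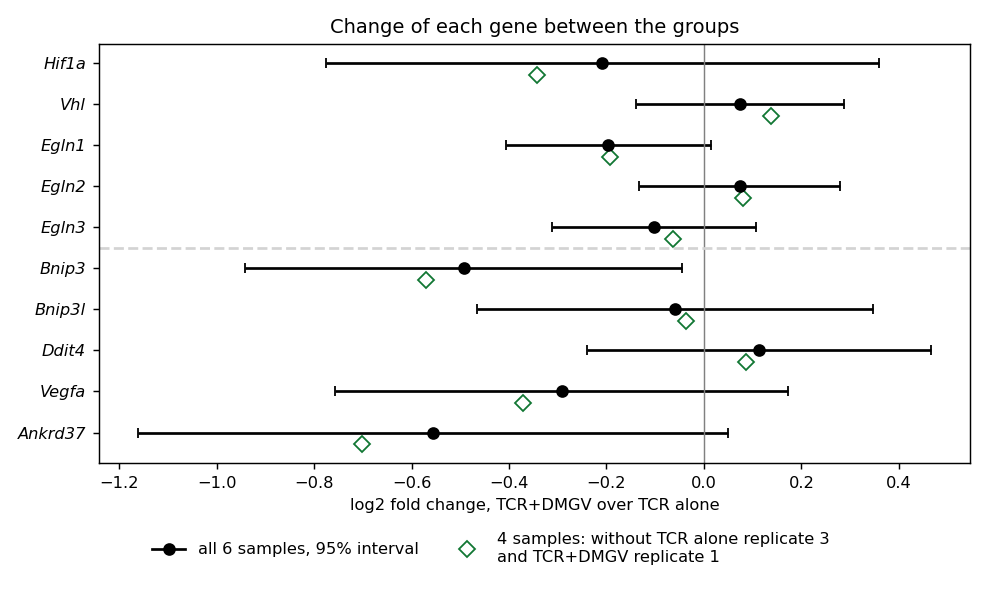
Log2 fold change (x axis) of each gene, sensing genes above the dashed line and targets below it, with 95% intervals from edgeR (filled circles, 6 samples), and the value without TCR alone replicate 3 and TCR+DMGV replicate 1 (open diamonds). The interval of Bnip3, from -0.94 to -0.04, is the only 1 of the 10 that does not hold 0, and its adjusted p is 1.00.

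Most members were read from 1 transcript. The share of a transcript is its percentage of the summed counts of the gene's transcripts, as the authors' StringTie run divided them. Egln1, Egln3 and Ddit4 have 1 annotated transcript each. Vhl-201 held 99.6% to 100% of Vhl, Bnip3l-201 98.2% to 99.4% of Bnip3l and Bnip3-201 93.1% to 97.9% of Bnip3. Of 22 member transcripts that passed the filter, 0 passed the threshold in edgeR's test over 38401 transcripts (0% of all did), and 0 had an unadjusted p under 0.05 (3.22% of all). DESeq2 called 0 of 42, with 1 at an unadjusted p under 0.05, and the share of all transcripts in that fit is not given here. There was no overlap in CPM between the groups for 2 of the 22, Egln1-201 and Ankrd37-201, against 9.25% of all transcripts.

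Hif1a-201 held 68.3%, 66.9% and 71.5% of the Hif1a counts of the TCR alone samples and 75.1%, 77.4% and 70.3% in TCR+DMGV. Hif1a-202, with the upstream first exon and the shorter start shown above, held 22.4%, 24.2% and 27.9% in TCR alone and 23.0%, 22.3% and 28.1% in TCR+DMGV. The upstream start thus made up a share of 24.8% ± 2.79 and 24.5% ± 3.18 in the groups (SD, n = 3 each), and the shares overlapped. In CPM, Hif1a-201 had a log2 fold change of -0.09 (standard error 0.25) and Hif1a-202 of -0.19 (standard error 0.24), with an adjusted p of 1.00 for each by edgeR.

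Hif1a-203, which codes for 258 residues and ends early at 73933076, was picked after its values were seen. It held 8.98%, 8.72% and 0.422% of the Hif1a counts without DMGV and 1.77%, 0.203% and 1.47% with it. The TCR alone samples held 2241, 2332 and 61 of its counts and those with DMGV 319, 46 and 296, so 2 TCR alone samples stood far above the other 4 samples and the third lay within the TCR+DMGV range. The log2 fold change was -2.90 with a standard error of 1.39 (unadjusted p = 0.085, adjusted p = 1.00 by edgeR), and -3.78 without the samples that stood apart (unadjusted p = 0.032, adjusted p = 0.84).

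For Egln2 the share moved between samples and not with the groups. Egln2-202, which codes for as many residues (419) as Egln2-201 but has a shorter transcript, was listed at 0 in TCR alone replicates 1 and 2 and TCR+DMGV replicate 1, while TCR alone replicate 3 held 284 of its counts and TCR+DMGV replicates 2 and 3 held 392 and 350. Its share there was 14.4%, 19.6% and 19.3%, and Egln2-201 held nearly all of the rest. The gene's own CPM stayed between 43.3 and 49.8 in the 6 samples.

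Vegfa-201, with 146 residues, held 54.4% to 61.1% of the Vegfa counts, and Vegfa-202, with 368 residues and a start further upstream, 34.0% to 36.8%. Their log2 fold changes were -0.33 and -0.27, close to that of the gene, with standard errors of 0.29 and 0.30. Ankrd37-201, the full coding form of 159 residues, was counted 73, 107 and 101 times without DMGV and 64, 76 and 45 times with it, without overlap of the CPM and with a log2 fold change of -0.69 (standard error 0.33, unadjusted p = 0.088 by edgeR). The retained intron form Ankrd37-202 had 5 to 33 counts and the nonsense-mediated decay form Ankrd37-205 had 0 to 33, which is too few to compare their shares.

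**Figure D4:**
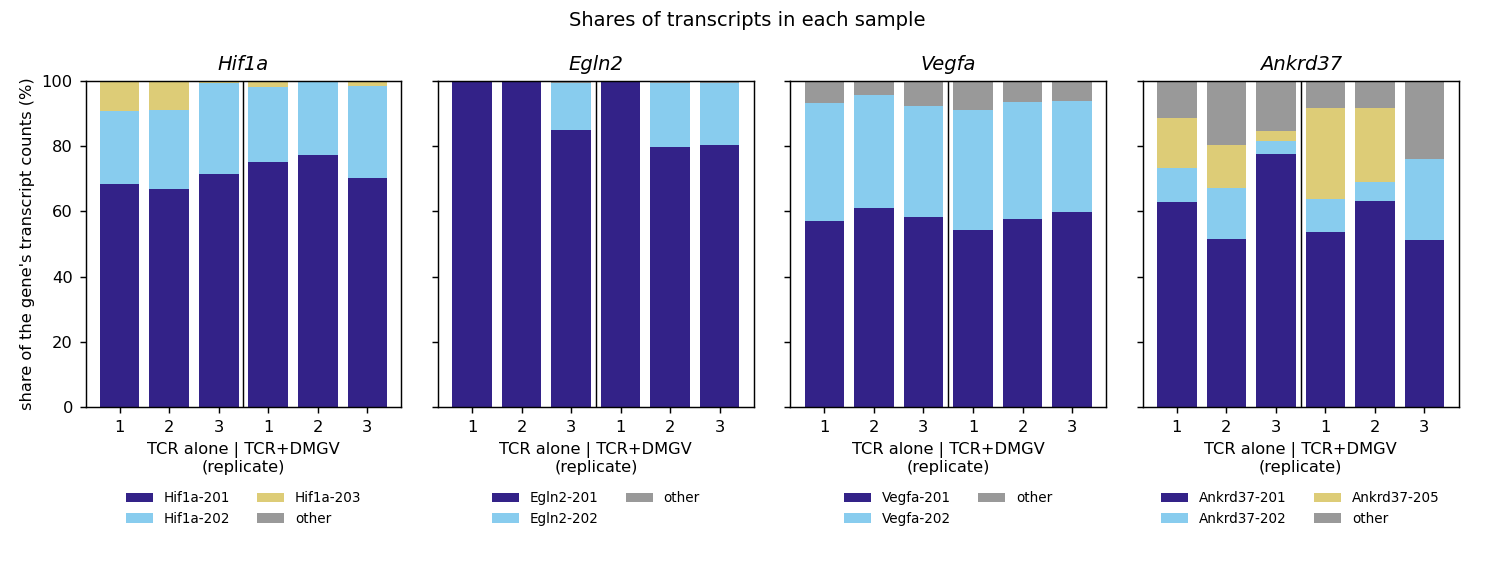
Share of each gene's transcript counts (y axis, percent) held by its transcripts in the 6 samples, TCR alone left and TCR+DMGV right of the line, for the 4 genes with more than 1 transcript at 10% or more, together with Hif1a-203. Hif1a-202 stays between 22.3% and 28.1%, while Egln2-202 is at 0 in 3 samples and at 14.4% to 19.6% in the other 3.

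The other genes of the pathway were read from 6 lists. Of 102 genes tested, 0 passed the threshold with edgeR, and 4 had an unadjusted p under 0.05 (2 higher and 2 lower in TCR+DMGV, against 3.19% of all genes). DESeq2 called 1 of the 102, Pfkfb3, where it called 14 of all 22526 genes in that fit.

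Of the 16 other genes of oxygen sensing, all were tested, 8 lay above and 8 below 0, and the median log2 fold change was -0.01. None had an unadjusted p under 0.05. Cited2, whose protein competes with HIF for the coactivators p300 and CBP, had 30.4 ± 3.18 CPM in TCR alone and 35.1 ± 6.50 in TCR+DMGV (SD, n = 3 each). Hif1an, the asparagine hydroxylase that blocks the coactivator site of HIF alpha, had 74.3 ± 4.07 and 80.2 ± 6.92 CPM, and Siah1b, a ubiquitin ligase gene, 14.6 ± 0.949 and 13.4 ± 1.40. Arnt, the partner of the alpha subunits, had mean CPM of 33.8 and 36.6, and Epas1, which encodes HIF-2α, of 3.85 and 3.42, both named after their values were seen.

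Among 29 tested of the 38 matched other HIF targets, 10 lay above and 19 below 0, with a median of -0.05, and 1 had an unadjusted p under 0.05. This was Rora, a nuclear receptor gene, with 7.06, 5.37 and 4.57 CPM in TCR alone and 3.86, 1.88 and 1.39 in TCR+DMGV. All its TCR+DMGV values lay below TCR alone, and its log2 fold change was -1.25 (standard error 0.39, unadjusted p = 0.014, adjusted p = 1.00 by edgeR). Car12, a carbonic anhydrase gene, had 52.3 ± 1.18 CPM in TCR alone and 58.6 ± 1.46 in TCR+DMGV, without overlap, and Ak4, a mitochondrial adenylate kinase gene, 19.5 ± 6.05 and 28.6 ± 8.06 (SD, n = 3 each). The targets Car9, Epo, Ndufa4l2, Stc1 and 5 others did not pass the filter on low counts.

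All 18 HIF targets of glucose uptake and glycolysis were tested, and 15 lay below 0 and 3 above, with a median of -0.06 and 1 gene at an unadjusted p under 0.05. That gene was Pfkfb3, which makes the activator of phosphofructokinase and had 46.8, 51.0 and 49.5 CPM in TCR alone and 83.5, 92.9 and 84.5 in TCR+DMGV, the reverse of the list's median. Its log2 fold change was 0.82 (standard error 0.09), with an adjusted p of 0.080 by edgeR and 9.67e-10 by DESeq2, and the other alternatives gave it an adjusted p between 0.058 and 1.00. Gpi1 and Pgam1, enzymes of glycolysis, had 577 ± 31.7 and 691 ± 42.9 CPM in TCR alone and 521 ± 12.2 and 623 ± 20.2 CPM in TCR+DMGV (SD, n = 3 each). Neither overlapped between the groups, and their log2 fold changes were both -0.15 (unadjusted p = 0.072 and 0.080 by edgeR).

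Of the mitophagy genes beside Bnip3 and Bnip3l, 17 were tested. Of these, 12 lay above 0 and 5 below, with a median log2 fold change of 0.06, where that of all genes tested was 0.0024. An unadjusted p under 0.05 was seen for 2 of them, 1 higher and 1 lower in TCR+DMGV. Map1lc3b, which encodes the LC3B protein that mitophagy receptors bind, had 37.5, 42.3 and 42.5 CPM in TCR alone and 55.5, 50.5 and 54.0 in TCR+DMGV. All its TCR+DMGV samples lay above TCR alone, with a log2 fold change of 0.39 (standard error 0.09, unadjusted p = 0.0041, adjusted p = 1.00 by edgeR). The gene that was lower was Optn, an autophagy receptor gene, with a log2 fold change of -0.70 (standard error 0.26, unadjusted p = 0.028 by edgeR). Optn had 2.59 ± 0.570 CPM in TCR alone and 1.59 ± 0.215 in TCR+DMGV, and Gabarapl2, of the LC3 family, 26.0 ± 1.39 and 30.1 ± 2.36 (SD, n = 3 each).

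Around Ddit4, 19 of 20 genes of mTORC1 control were tested, 8 above and 11 below 0 with a median of -0.05, and none had an unadjusted p under 0.05. Eif4ebp1, a translation repressor gene that mTORC1 acts on, had 48.6 ± 3.83 CPM in TCR alone and 40.1 ± 4.93 in TCR+DMGV (SD, n = 3 each). Tbc1d7, the third part of the TSC complex, had 5.53 ± 0.897 and 6.68 ± 0.246 CPM, and Sesn2, a stress-induced inhibitor of the pathway, 21.5 ± 0.839 and 19.1 ± 1.75. Around Vegfa, only 3 of 9 matched ligand and receptor genes passed the filter. Vegfb had 18.6 ± 1.81 and 16.1 ± 1.63 CPM, and the coreceptor genes Nrp1 and Nrp2 had 17.3 ± 0.320 and 18.2 ± 1.92, and 3.11 ± 0.785 and 2.96 ± 0.885 CPM. The receptor genes Flt1, Kdr and Flt4 and the ligand genes Pgf, Vegfc and Vegfd did not pass.

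**Figure D5:**
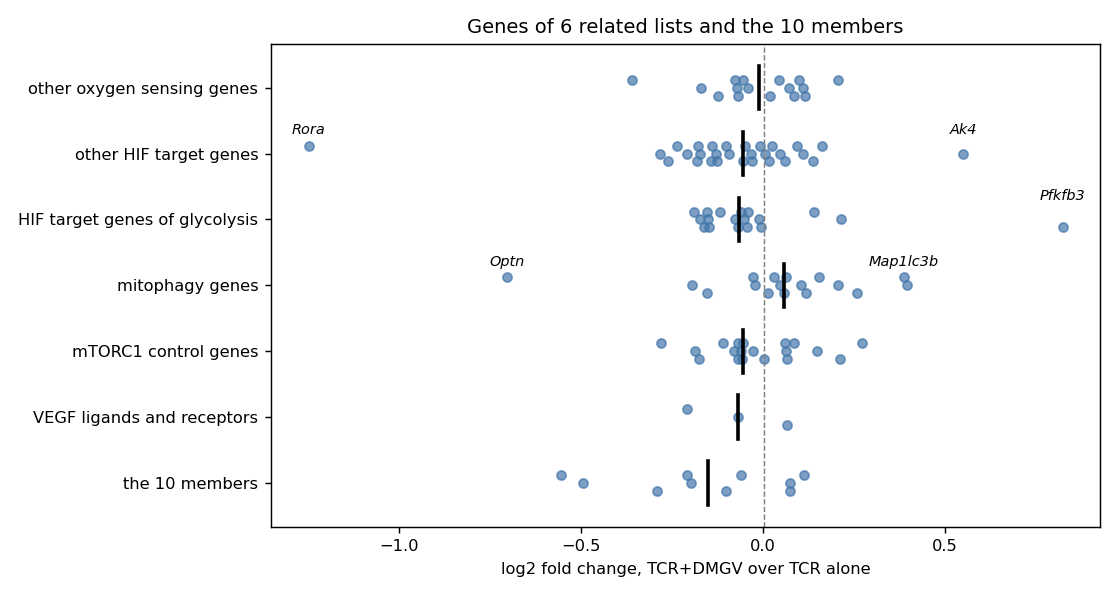
Log2 fold change (x axis) of each tested gene of the 6 lists and of the 10 members, with the median of each row as a black bar and that of all 14786 genes as a dashed line. The medians of the lists lie between -0.07 and 0.06, that of the members at -0.15, and Pfkfb3 (0.82) and Rora (-1.25) lie farthest from 0.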

How the data were processed

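Splenic CD3+ T cells were isolated magnetically. Reads were cleaned by the authors with SOAPnuke, aligned by HISAT2 2.0.4 and quantified by StringTie. Whole-number counts of genes and of transcripts were deposited, as were FPKM values, which the authors deposited scaled to length and library. How coverage became counts, and whether strand was used, is not given in the sources used here, and the summed counts lie above the read depth the methods state. Counts of transcripts that share exons are estimates of StringTie.

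The submitters' processing notes name mm9, whereas 99.7% of the 52550 gene identifiers are those of GENCODE M21. Coordinates and transcript sequences are that annotation's own (GRCm38), and promoters are RefSeq's (GRCm38.p6).

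Gene and transcript counts were each fitted whole with edgeR 4.0.16 (R 4.3.3): TMM, filterByExpr, quasi-likelihood test with group as the only term, two-sided, Benjamini-Hochberg adjustment, threshold 0.05. Fold changes are unshrunken, with 95% intervals. The legend calls the samples independent, and no labels give batches. The members and lists were chosen with earlier results of these data known. Named beside the members were transcripts with 10% or more of a gene's counts, the 3 genes of smallest p in each list and the 3 genes most like Hif1a. The alternatives used DESeq2 1.42.0, limma 3.58.1, other scalings, filters and pseudocounts, a GC correction, the replicate number and left-out samples. Scripts were tested on simulated data.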

Additional observations from a re-analysis of the deposited data

How the results depend on the processing

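Under 17 alternatives each, the log2 fold changes of 9 members kept their direction, with 0 members past the threshold and 0 to 3 at an unadjusted p under 0.05 in each. The 3 came from the edgeR fit without TCR alone replicate 3. There, 1109 of all 15191 genes tested had an unadjusted p under 0.05, against 471 of 14786 with all 6 samples. Bnip3l ran from -0.175 to 0.0762 when samples were left out in turn and was above 0 without TCR alone replicate 1 or TCR+DMGV replicate 1. Nrp1 ran from -0.0262 to 0.115, with -0.0314 without both samples that stood apart, Nrp2 from -0.296 to 0.135 and Hif1a-201 from -0.327 to 0.0275, above 0 without TCR alone replicate 1 or 2 or TCR+DMGV replicate 1. The cause was not tested. Of the genes in the lists, 1 (Pfkfb3) passed with DESeq2 and 0 with any other setting. Of all genes, 2 passed with edgeR, 14 with DESeq2, 1 with library size alone, 1 with all genes of at least 1 count, 0 with log2(FPKM + 1), log2(FPKM + 0.1) or log2(FPKM + 1) of all genes with a value, 0 to 5 with a sample left out and 12 without both samples that stood apart (4 samples). With the replicate block, 0 of all genes and 0 members passed, against 2 and 0. The numbers share no stated mouse or day. The deviations of same-numbered samples correlated at -0.154, 0.121 and -0.148, and not every sample correlated best with its own number. The transcript fit without both samples was added after the data were seen. With 3 samples a group, the 95% intervals of the members reached 0.21 (Egln2) to 0.61 (Ankrd37) to either side of the log2 fold change.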
